A study of Mus musculus with 27 samples.

Results

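The 7 genes described here encode the BTG/TOB and ZFP36 proteins that speed the decay of messenger RNA. They are Btg1, Btg2, Tob1 and Tob2 of the first family and Zfp36, Zfp36l1 and Zfp36l2 of the second. They were picked by symbol, with earlier results of these data known, among 18193 genes measured by a probe set annotated to a single gene. Of a gene's several probe sets, the one brightest on average over all 27 arrays, on the log2 scale, stands for it here. All 7 passed the filter on dim genes (log2 of at least 5 on at least 3 arrays), as did 15711 genes in all. The cells were KUSA4b10, an established mouse bone marrow stromal line with osteoblast potential. They received PTH(1–34), an N-terminal fragment of parathyroid hormone, at 10 nM, PTHrP(1–141), a form of parathyroid hormone-related protein, at 20 nM, or nothing. RNA was collected after 1, 6 or 24 h, which gives 9 groups of 3 arrays. Ligand, peptide length and dose differ together between the treated groups and cannot be told apart. The series follows a single cell line, and its labels do not say that the replicates were separate cultures. The p-values therefore set differences against the spread among these samples, and that spread may be technical. The arrays read bulk RNA, in which fewer cells of a kind and less RNA per cell cannot be told apart.

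BTG and TOB proteins share an N-terminal domain that binds the CNOT7 and CNOT8 deadenylases of the CCR4-NOT complex, and by bringing this complex to messenger RNA they promote shortening of the poly(A) tail. They are known as inhibitors of cell proliferation, and in mice Tob1 is known to restrain BMP signalling and bone formation. ZFP36 proteins bind AU-rich elements in the 3′ untranslated regions of cytokine and growth factor transcripts through a pair of CCCH zinc fingers and recruit the same complex. Several genes of both families are themselves short-lived early response genes in many cell types. PTH and PTHrP act on osteoblast-lineage cells through a shared receptor that raises cyclic AMP.

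Array medians ran from 83.2 to 91.1 on the deposited linear scale, and within-group correlations of log2 values across genes, which are not independent replicates, were at least 0.992. The exception was replicate 3 of the PTHrP arrays at 1 h, which stood apart and brought the lowest value to 0.983. Of 10 stromal and osteoblast markers, 9 had a probe set annotated to that gene alone, all but Runx2. Col1a1 (13.7 to 14.8) and Pth1r (9.99 to 11.4) had high log2 intensities. Of 9 macrophage and blood cell markers 8 had such a probe set, and 6 passed the filter. Ptprc (3.89 to 4.38) and Itgam (3.90 to 4.39) did not pass. The brightest were Csf1r (7.58 to 8.21), Cd14 (7.01 to 8.06), Cd3e (6.88 to 7.67) and Lyz2 (6.81 to 7.31). Of 5 endothelial markers 4 passed, with Kdr the brightest at 6.41 to 7.22 and Pecam1 at 4.65 to 5.38. Adipoq and Fabp4, markers of adipocytes, were well detected at 9.92 to 12.1 and 9.15 to 11.5. The 3′ minus 5′ difference of Actb, a measure of RNA integrity, averaged 0.27 after PTH, 0.28 after PTHrP and 0.23 in untreated cells at 1 h; at 6 h it was 0.34 after PTH, 0.30 after PTHrP and 0.25 in untreated cells, and at 24 h 0.42, 0.44 and 0.38 for PTH, PTHrP and untreated cells. The same difference of Gapdh was negative in every group. For PTH, PTHrP and untreated cells it averaged -0.173, -0.200 and -0.178 at 1 h. At 6 h it was -0.165, -0.146 and -0.198, and at 24 h -0.214, -0.222 and -0.211, in the same order. The part of either difference in the results was not tested.

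Promoter windows from 250 bases before to 50 after the start were available from RefSeq (build GRCm38.p6) for 6 of the 7 genes; Zfp36l2 is named only. The Tob1 window surrounds a start inside the annotated span of the gene, not its outermost one, and positions count from the start on which each window is built. The windows were searched on both strands for the full cAMP response element TGACGTCA, its core TGACG, the AP-1 element TGACTCA or TGAGTCA, the EGR element GCGTGGGCG and the CArG box, and on the gene's strand for TATAAA. The core is contained in the full element. Shown are the 3 genes with large early differences that held a searched element, and Btg1 as a family member that did not pass any test against untreated cells. Capitals mark the matches.
Btg2 (chr1:134079106-134079405, minus strand): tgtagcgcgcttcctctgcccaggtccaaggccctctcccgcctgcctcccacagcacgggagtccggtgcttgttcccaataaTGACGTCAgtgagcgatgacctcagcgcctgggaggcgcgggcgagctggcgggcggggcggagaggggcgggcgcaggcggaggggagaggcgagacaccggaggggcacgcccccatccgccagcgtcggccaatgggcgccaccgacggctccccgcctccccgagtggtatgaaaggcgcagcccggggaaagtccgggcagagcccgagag
Tob1 (chr11:94211204-94211503, plus strand): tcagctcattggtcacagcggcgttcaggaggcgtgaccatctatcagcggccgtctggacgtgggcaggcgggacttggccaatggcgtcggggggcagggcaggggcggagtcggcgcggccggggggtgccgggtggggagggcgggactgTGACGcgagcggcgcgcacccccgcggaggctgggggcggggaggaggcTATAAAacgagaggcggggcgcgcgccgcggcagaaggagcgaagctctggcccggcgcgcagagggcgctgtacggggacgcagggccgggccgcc
Zfp36 (chr7:28379179-28379478, minus strand): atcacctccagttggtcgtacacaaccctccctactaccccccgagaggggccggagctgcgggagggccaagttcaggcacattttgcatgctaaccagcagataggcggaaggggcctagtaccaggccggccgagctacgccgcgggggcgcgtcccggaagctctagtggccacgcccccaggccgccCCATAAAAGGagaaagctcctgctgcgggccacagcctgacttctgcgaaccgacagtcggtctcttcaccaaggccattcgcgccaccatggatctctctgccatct
Btg1 (chr10:96616751-96617050, plus strand): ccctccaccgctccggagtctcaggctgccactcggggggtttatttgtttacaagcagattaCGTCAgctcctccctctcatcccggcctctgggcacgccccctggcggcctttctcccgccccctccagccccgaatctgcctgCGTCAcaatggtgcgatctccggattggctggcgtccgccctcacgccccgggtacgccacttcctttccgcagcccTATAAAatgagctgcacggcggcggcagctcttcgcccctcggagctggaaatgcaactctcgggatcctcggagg

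The Btg2 window held the full cAMP response element from -166 to -159 relative to the start, which 1.79% of 32851 mouse promoter windows of this length hold. The Tob1 window held the core from -96 to -92 and TATAAA from -47 to -42. In the Zfp36 window a CArG box, the binding motif of serum response factor, lay from -58 to -49, and 1.63% of all windows hold one. Btg1 held 2 copies of the core on the opposite strand, from -187 to -183 and from -103 to -99, and TATAAA from -26 to -21. The core was thus in 3 of the 6 windows and in 20.8% of all windows. TATAAA was in 3 of the 6 windows, Zfp36l1 from -29 to -24 included, and in 8.32% of all. The Tob2 window held none of the searched motifs. No member window held the AP-1 element (5.2% of all windows) or the EGR element (0.612%). A match describes letters in a window and not a used site.

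At 1 h, 5 of the 7 genes were higher with PTH than in untreated cells, namely Btg2, Tob2, Tob1, Zfp36 and Zfp36l2, and the same 5 genes were higher with PTHrP. None was lower. Of all genes tested, 1.74% passed with PTH and 1.81% with PTHrP in either direction (adjusted p under 0.05, limma with Benjamini-Hochberg adjustment), and 1.44% and 1.57% were higher. The median difference of the 7 genes was 1.24 log2 units with PTH and 1.00 with PTHrP, beside -0.02 and 0.01 over all genes. The 7 genes were chosen with earlier results of these data known, so standing above all genes here is not an unbiased finding. Both comparisons share the untreated arrays, so they are not independent of each other. In 6 of the 7 genes, all but Btg1, the 3 arrays of each ligand lay above the 3 untreated arrays, where 17.3% of all genes had arrays that did not overlap with PTH and 12.8% with PTHrP. Of all genes 0.299% were lower with PTH and 0.248% with PTHrP. Without PTHrP replicate 3 of 1 h, the array that stood apart, the same 5 genes passed with PTHrP: Btg2 differed by 1.96 (adjusted p = 2.16e-10), Tob2 by 1.39, Tob1 by 1.26, Zfp36 by 0.87 (5.27e-06) and Zfp36l2 by 0.57 (0.000228), and 931 of all genes passed in place of 285.

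At 6 h the 7 genes no longer moved one way. With PTH, Btg2 and Zfp36 were higher and Zfp36l1 and Zfp36l2 lower, while 29.3% of all genes passed, 11.4% as higher and 17.9% as lower. With PTHrP, Zfp36 was higher and Zfp36l1 and Tob2 were lower, while 20.9% of all genes passed, 8.7% as higher and 12.2% as lower. The arrays of 4 members did not overlap with PTH and those of 3 with PTHrP, beside 43.9% and 39.9% of all genes, so arrays free of overlap were about as common among the members as among all genes at 6 h. At 24 h Zfp36l1 was lower with PTH, where 11.6% of all genes passed, 5.69% as higher and 5.96% as lower. No member passed with PTHrP, where 6.1% of all genes did, 3.09% as higher and 3.02% as lower, and 2 members had an unadjusted p under 0.05, as had 2410 of the 15711 genes. Arrays did not overlap for 5 members with PTH and 3 with PTHrP at 24 h, beside 27% and 26.4% of all genes.

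**Figure D1:**
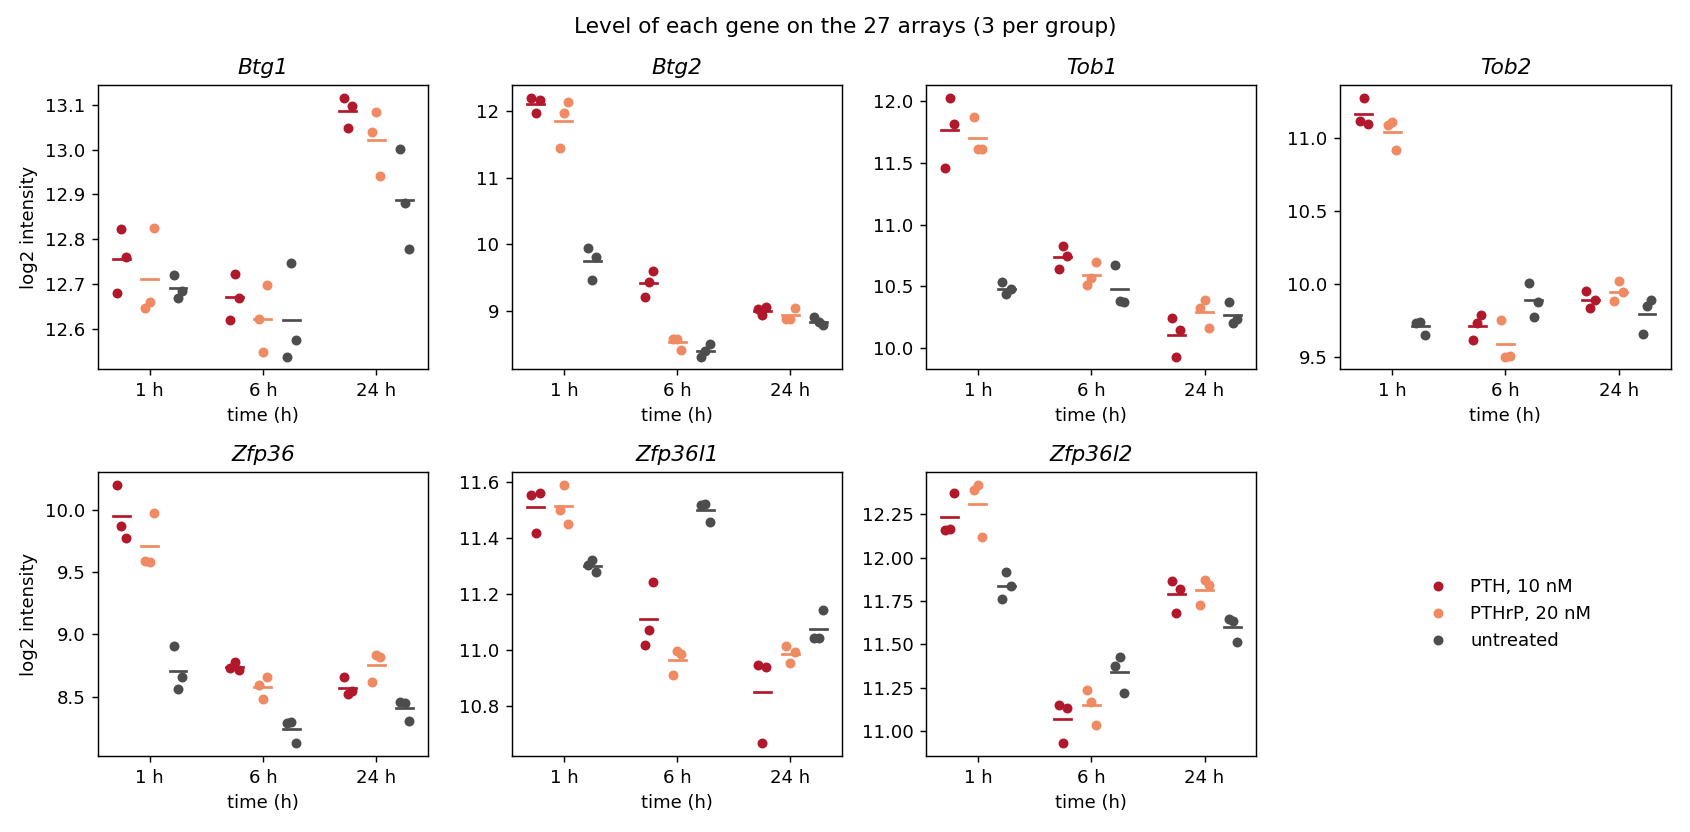
Log2 intensity (y axis) of each of the 7 genes on the 27 arrays by time in hours (x axis), with PTH at 10 nM in red, PTHrP at 20 nM in orange and untreated cells in grey; points are arrays, short lines are means of 3, and each panel has its own y range. Btg2, Tob1, Tob2 and Zfp36 stand high in all 6 treated arrays at 1 h, Zfp36l1 is lower in treated than in untreated cells at 6 h, and Btg1 is highest at 24 h in all groups.

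Btg2 (chromosome 1, 134074865 to 134079155, GRCm38.p6), an antiproliferative early response gene and known p53 target, had the largest difference of the 7 genes. At 1 h its log2 intensity was 12.19, 11.96 and 12.16 on the PTH arrays, 11.44, 11.97 and 12.13 on the PTHrP arrays, and 9.95, 9.47 and 9.81 on the untreated arrays. All 6 treated arrays lay above the untreated ones by more than a log2 unit, and the lowest of them was PTHrP replicate 1. The difference from untreated cells was 2.36 ± 0.13 log2 units with PTH (SE from the fit; 5.13-fold; adjusted p = 6.39e-12) and 2.10 ± 0.13 with PTHrP (4.29-fold; adjusted p = 6.32e-11). Among 15711 genes ordered from the highest to the lowest difference, it ranked 14 with PTH and 15 with PTHrP.

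At 6 h Btg2 differed between the ligands. It measured 9.22, 9.44 and 9.60 with PTH, 8.59, 8.59 and 8.43 with PTHrP, and 8.32, 8.41 and 8.51 in untreated cells. The PTH arrays lay above all others of that time, and the PTHrP arrays overlapped the untreated ones. With PTH the difference from untreated cells was 1.00 ± 0.13 (adjusted p = 2e-06), and with PTHrP it was 0.12 ± 0.13 (adjusted p = 0.573; 95% interval -0.15 to 0.40). PTHrP minus PTH was -0.88 ± 0.13 (adjusted p = 0.000176; 95% interval -1.16 to -0.60), a call made for 7.62% of all genes and for no other member. At 24 h the levels were 9.03, 8.94 and 9.06 with PTH, 8.89, 8.89 and 9.04 with PTHrP, and 8.91, 8.84 and 8.79 in untreated cells, and neither ligand's difference passed (0.16, adjusted p = 0.556, and 0.09, adjusted p = 0.853).

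Untreated cells also changed in Btg2 with time: the mean was 9.75 ± 0.25 at 1 h, 8.41 ± 0.09 at 6 h and 8.85 ± 0.06 at 24 h (SD, n = 3 each). The difference was -1.33 ± 0.13 at 6 h against 1 h (adjusted p = 7.9e-07), rank 15698 of 15711, and -0.90 ± 0.13 at 24 h against 1 h (adjusted p = 1.48e-05). Of all genes, 2.27% passed at 6 h against 1 h and 23.1% at 24 h. Ordered by mean, the 9 groups ran PTH 1 h, PTHrP 1 h, untreated 1 h, PTH 6 h, PTH 24 h, PTHrP 24 h, untreated 24 h, PTHrP 6 h and untreated 6 h. Neighbours in this order overlapped except PTHrP 1 h over untreated 1 h, PTH 6 h over PTH 24 h, and untreated 24 h over PTHrP 6 h. The 9 group means spanned 3.69 log2 units, more than in 99.8% of genes, where the median span was 0.39.

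Tob1 (chromosome 11, 94209842 to 94215495, GRCm38.p6), which binds both the deadenylase and SMAD proteins, measured 11.46, 12.03 and 11.81 with PTH, 11.87, 11.61 and 11.61 with PTHrP, and 10.53, 10.44 and 10.48 in untreated cells at 1 h. The treated arrays were all at least 0.9 log2 units above the untreated ones, which lay close together. The differences were 1.28 ± 0.12 with PTH (2.44-fold; adjusted p = 3.42e-08) and 1.22 ± 0.12 with PTHrP (2.32-fold; adjusted p = 1.06e-07). At 6 h Tob1 was at 10.64, 10.82 and 10.74 with PTH, 10.51, 10.57 and 10.69 with PTHrP, and 10.67, 10.38 and 10.37 in untreated cells. Untreated replicate 1 was level with the treated arrays, and the differences of 0.26 ± 0.12 and 0.11 ± 0.12 did not pass (adjusted p = 0.102 and 0.546). Without that array the PTH difference was 0.36 and passed (adjusted p = 0.0383). At 24 h the values were 10.24, 9.93 and 10.15 with PTH, 10.32, 10.39 and 10.17 with PTHrP, and 10.37, 10.20 and 10.24 in untreated cells, with differences of -0.16 and 0.02 that did not pass. In the order of Tob1 group means, the treated groups at 1 h lay free of all others and all lower neighbours overlapped.

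Tob2 (chromosome 15, 81848270 to 81858326, GRCm38.p6), the paralog of Tob1 that also couples deadenylases to poly(A)-binding protein, measured 11.12, 11.27 and 11.09 with PTH, 11.08, 11.11 and 10.92 with PTHrP, and 9.74, 9.74 and 9.65 in untreated cells at 1 h. The 6 treated arrays lay over a log2 unit above the untreated ones. The differences were 1.45 ± 0.08 with PTH (2.74-fold; adjusted p = 1.12e-11) and 1.33 ± 0.08 with PTHrP (2.51-fold; adjusted p = 6.32e-11). At 6 h Tob2 measured 9.62, 9.73 and 9.79 with PTH, 9.76, 9.50 and 9.51 with PTHrP, and 10.01, 9.78 and 9.88 in untreated cells. The PTHrP arrays lay just below the untreated ones, while the PTH arrays overlapped them. The PTHrP difference was -0.30 ± 0.08 (adjusted p = 0.012) and the PTH difference -0.18 ± 0.08 (adjusted p = 0.133). The PTHrP call was lost without untreated replicate 1 (-0.24, adjusted p = 0.0904), PTHrP replicate 2 (-0.26, 0.0653) or PTHrP replicate 3 (-0.26, 0.0656). At 24 h all Tob2 arrays lay between 9.65 and 10.02 and neither difference passed. The treated groups at 1 h again lay free of all others, and all lower neighbours in the order of means overlapped.

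Btg1 (chromosome 10, 96617001 to 96622813, GRCm38.p6), a BTG family member known from a chromosomal translocation in leukaemia, passed in no comparison with untreated cells. Its differences at 1 h were 0.06 ± 0.07 with PTH (adjusted p = 0.831; 95% interval -0.09 to 0.21) and 0.02 ± 0.07 with PTHrP (adjusted p = 0.951; 95% interval -0.13 to 0.17). At 6 h they were 0.05 with PTH and 0.00 with PTHrP. All 18 arrays of 1 and 6 h lay between 12.54 and 12.82. At 24 h Btg1 measured 13.09 ± 0.04 with PTH, 13.02 ± 0.07 with PTHrP and 12.89 ± 0.11 in untreated cells (SD, n = 3 each). The 3 groups of 24 h were the highest of the 9, neighbours in the order overlapped throughout, and the PTH arrays at 24 h lay above all untreated arrays of that time. The PTH difference at 24 h was 0.20 ± 0.07 and did not pass (adjusted p = 0.08); without untreated replicate 1 of that time it was 0.26 and passed (adjusted p = 0.0398). Untreated Btg1 at 24 h against 1 h was 0.20 ± 0.07 (adjusted p = 0.0539).

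Zfp36 (chromosome 7, 28376784 to 28379228, GRCm38.p6), which encodes tristetraprolin, the member of its family best known for destabilising the mRNA of tumour necrosis factor, measured 10.20, 9.87 and 9.78 with PTH, 9.59, 9.58 and 9.98 with PTHrP, and 8.91, 8.56 and 8.66 in untreated cells at 1 h. All treated arrays lay above the untreated ones, and the ligands' arrays overlapped. The differences were 1.24 ± 0.11 with PTH (2.36-fold; adjusted p = 2.91e-08) and 1.00 ± 0.11 with PTHrP (adjusted p = 1.1e-06). At 6 h it was at 8.73, 8.78 and 8.71 with PTH, 8.59, 8.49 and 8.66 with PTHrP, and 8.29, 8.30 and 8.13 in untreated cells. Both ligands' arrays still lay above the untreated ones, and Zfp36 was the gene of the 7 that passed as higher with both ligands at 1 and 6 h. The 6 h differences were 0.50 ± 0.11 with PTH (adjusted p = 0.000952) and 0.34 ± 0.11 with PTHrP (adjusted p = 0.0306). The PTHrP call at 6 h was lost without untreated replicate 1 (0.36, adjusted p = 0.0526) or 3 (0.28, 0.13), or PTHrP replicate 1 (0.33, 0.0736) or 3 (0.30, 0.11).

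At 24 h Zfp36 was at 8.66, 8.52 and 8.54 with PTH, 8.62, 8.84 and 8.82 with PTHrP, and 8.46, 8.45 and 8.31 in untreated cells. Treated arrays again lay above untreated ones, but neither difference passed (0.17, adjusted p = 0.434, with PTH and 0.35 ± 0.11, adjusted p = 0.0641, with PTHrP). The PTHrP difference passed when an array of another time was left out of the shared estimate of the spread: untreated replicate 1 (adjusted p = 0.0494), PTH replicate 1 (0.0363) or PTHrP replicate 3 (0.0246) of 1 h. In untreated cells Zfp36 was lower at 6 h than at 1 h, with a difference of -0.47 ± 0.11 (adjusted p = 0.0216), a call lost without untreated replicate 1 (-0.37, 0.179) or 3 (-0.50, 0.0536) of 1 h, or 2 (-0.50, 0.0512) or 3 (-0.41, 0.133) of 6 h. Among Zfp36 group means, the treated groups at 1 h lay free of the others, and so did untreated cells at 24 h and at 6 h below all the rest; the groups between overlapped their neighbours.

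Zfp36l1 (chromosome 12, 80107760 to 80113013, GRCm38.p6) was lower with both ligands at 6 h. Its product, also called BRF1 or TIS11B, binds AU-rich elements as tristetraprolin does. At 6 h it measured 11.02, 11.07 and 11.24 with PTH, 10.91, 10.996 and 10.99 with PTHrP, and 11.52, 11.52 and 11.46 in untreated cells. All treated arrays lay below the untreated ones. The differences were -0.39 ± 0.07 with PTH (0.764-fold; adjusted p = 0.000194) and -0.53 ± 0.07 with PTHrP (0.690-fold; adjusted p = 6.2e-06). At 1 h it measured 11.55, 11.42 and 11.56 with PTH, 11.50, 11.59 and 11.45 with PTHrP, and 11.31, 11.32 and 11.28 in untreated cells. Those treated arrays lay above the untreated ones, yet the differences of 0.21 ± 0.07 with each ligand did not pass (adjusted p = 0.263 and 0.241).

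At 24 h Zfp36l1 was at 10.95, 10.67 and 10.94 with PTH, 11.02, 10.95 and 10.99 with PTHrP, and 11.04, 11.05 and 11.14 in untreated cells. All treated arrays lay below the untreated ones, and PTH replicate 2 was the lowest. The difference with PTH was -0.23 ± 0.07 (adjusted p = 0.0482) and with PTHrP -0.09 ± 0.07 (adjusted p = 0.674). This PTH call was lost in 19 of 27 fits that left out 1 array: without PTH replicate 2 of 24 h it was -0.13 (adjusted p = 0.283), without untreated replicates 1, 2 and 3 of 24 h -0.24 (0.0764), -0.24 (0.0844) and -0.19 (0.199), and without 15 arrays of other groups the adjusted p was 0.0509 to 0.0583. At this time the summed intensity of the 9 stromal and osteoblast markers was 49950 to 53228 with PTH and 57462 to 66654 with PTHrP, against 70769 to 72616 in untreated cells, and the summed intensity of the 3 adipocyte markers measured was 1702 to 2903 with PTH and 1556 to 4397 with PTHrP, against 3260 to 5120 in untreated cells. At 6 h the stromal sum was 75091 to 76652 with PTH and 78292 to 82018 with PTHrP, against 82591 to 84504 in untreated cells. These sums are of linear intensities, so the brightest markers weigh most, Col1a1 (log2 of 13.7 to 14.8) and Col1a2 (14.2 to 14.6) in the stromal sum. The part of these markers in the results at 6 and 24 h was not tested. Untreated Zfp36l1 was lower at 24 h than at 1 h, with a difference of -0.22 ± 0.07 (adjusted p = 0.0282) that was lost without untreated replicates 1, 2 or 3 of 1 h (0.0646, 0.0863 and 0.0537) or 1 or 2 of 24 h (0.0941 and 0.0929). In the order of means, untreated cells at 6 h lay free above those at 1 h, those at 1 h free above PTH at 6 h, and those at 24 h free above PTHrP at 24 h.

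Zfp36l2 (chromosome 17, 84183924 to 84187947, GRCm38.p6), the third AU-rich element binding gene, rose slightly at 1 h. It measured 12.16, 12.17 and 12.37 with PTH, 12.39, 12.42 and 12.12 with PTHrP, and 11.76, 11.92 and 11.84 in untreated cells. The treated arrays lay above the untreated ones. The differences were 0.39 ± 0.09 with PTH (1.32-fold; adjusted p = 0.0166) and 0.47 ± 0.09 with PTHrP (1.39-fold; adjusted p = 0.00263). The PTH call was lost without PTH replicate 3 (0.32, adjusted p = 0.168) or untreated replicates 1 (0.36, 0.109) or 3 (0.39, 0.0656).

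At 6 h Zfp36l2 was at 11.15, 10.93 and 11.13 with PTH, 11.24, 11.17 and 11.03 with PTHrP, and 11.38, 11.43 and 11.22 in untreated cells. The PTH arrays lay below the untreated ones and the PTHrP arrays overlapped them. The PTH difference was -0.27 ± 0.09 (adjusted p = 0.0248) and the PTHrP difference -0.19 ± 0.09 (adjusted p = 0.144). The PTH call was lost without PTH replicate 2 (-0.20, 0.151) or untreated replicates 1 (-0.25, 0.0811) or 2 (-0.23, 0.113). At 24 h the differences were 0.19 with PTH and 0.21 with PTHrP and did not pass (adjusted p = 0.212 and 0.225), although the treated arrays lay above the untreated ones. Untreated Zfp36l2 averaged 11.84 ± 0.08 at 1 h, 11.34 ± 0.11 at 6 h and 11.60 ± 0.08 at 24 h (SD, n = 3 each), and the difference of -0.50 ± 0.09 at 6 h against 1 h passed (adjusted p = 0.00203). In the order of means the treated groups of 1 h lay free above all others, the 3 groups of 6 h were the lowest, and untreated cells at 24 h lay free between them and the rest.

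**Figure D2:**
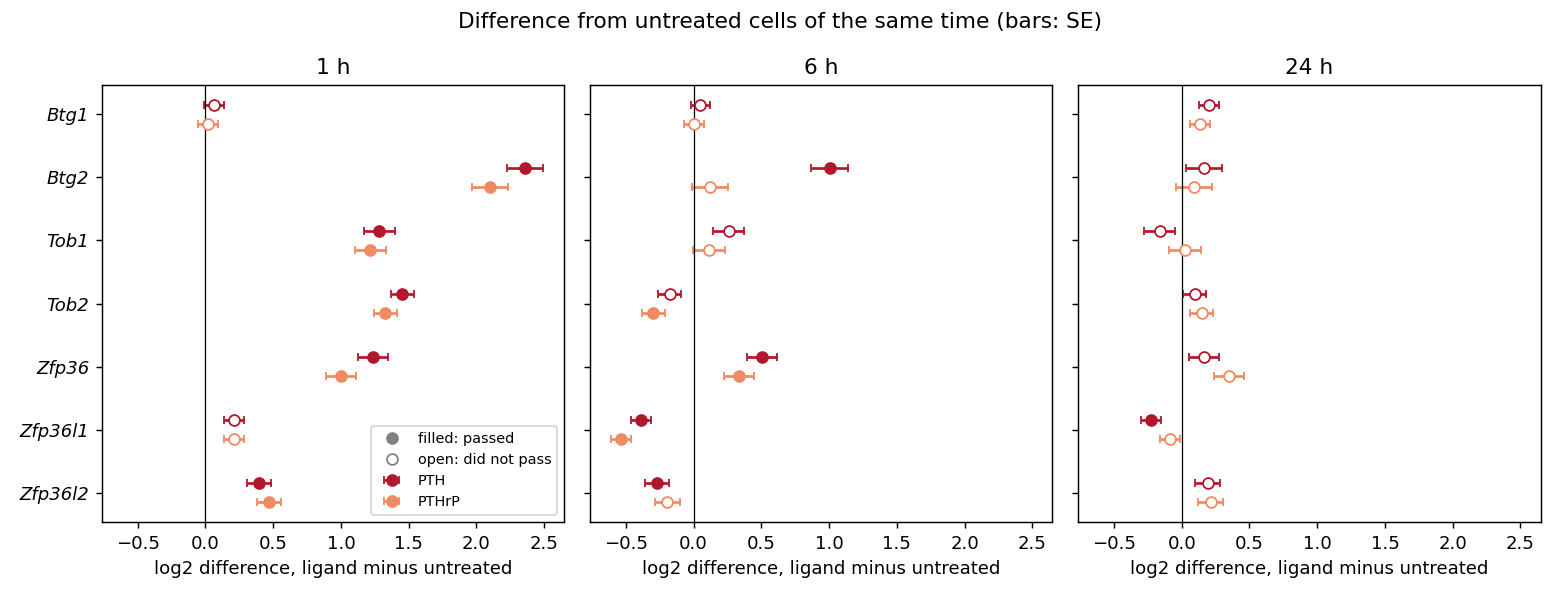
Difference from untreated cells of the same time in log2 units (x axis) for each gene (rows) at 1, 6 and 24 h (panels), PTH in red above PTHrP in orange; bars are SE and filled points passed an adjusted p of 0.05. At 1 h Btg2 lies at 2.36 and 2.10 and Zfp36l1 and Btg1 are open, and at 6 h Btg2 lies at 1.00 with PTH and 0.12 with PTHrP.

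With PTHrP set directly against PTH, the 7 genes differed little at 1 and 24 h. At 1 h no gene of the 15711 passed, while 632 had an unadjusted p under 0.05, Zfp36 among them (-0.24 ± 0.11, unadjusted p = 0.0436, adjusted p = 0.926). Btg2 had a difference of -0.26 (95% interval -0.53 to 0.02), Tob2 of -0.12 (-0.30 to 0.05) and Tob1 of -0.07 (-0.31 to 0.17), so moderate differences are not excluded by these intervals. No member's arrays were free of overlap at 1 h, beside 6.91% of all genes. At 6 h 4.45% of all genes passed as higher with PTHrP and 3.17% as lower, Btg2 among the lower. The other 6 genes had differences of -0.16 to 0.08, none of which passed, and the PTHrP arrays lay below the PTH arrays for Btg2, Zfp36 and Zfp36l1, where 25% of all genes had arrays that did not overlap. At 24 h, where 1.16% of all genes passed, 0.84% as higher and 0.318% as lower, the members had differences of -0.07 to 0.19 and none passed; the arrays of 1 member did not overlap, beside 12.4% of all genes. PTH at 10 nM and PTHrP at 20 nM are not matched doses, so these values describe the groups as treated.

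The change of each ligand's effect with time was tested as a difference of differences, each against the untreated cells of its own time. Between 1 and 6 h the effect became smaller or more negative for 6 of the 7 genes, all but Btg1, with PTH and with PTHrP. Over all genes 18.5% passed with PTH and 12.2% with PTHrP, 12.1% and 8.45% in that direction and 6.49% and 3.74% in the other. Between 6 and 24 h, Btg2 passed as lower and Zfp36l2 as higher with PTH, where 20.4% of all genes passed, 12.6% as higher and 7.82% as lower. Tob2, Zfp36l1 and Zfp36l2 passed as higher with PTHrP, where 12.1% of all genes passed, 7.08% as higher and 5.03% as lower. These comparisons reuse the 6 h arrays. In untreated cells 3 members were lower at 6 h than at 1 h, namely Btg2, Zfp36 and Zfp36l2, beside 1.55% of all genes (0.719% were higher), and Btg2 and Zfp36l1 were lower at 24 h than at 1 h, beside 11.5% (11.6% were higher).

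Other probe sets of the same genes were fitted in a table of 35371 probe sets. The other Btg2 probe set gave 2.03 ± 0.11 with PTH and 1.78 ± 0.11 with PTHrP at 1 h, and 0.77 (adjusted p = 9.31e-06) and 0.15 (adjusted p = 0.421) at 6 h. The other Tob1 probe set gave 1.29 with PTH and 0.75 with PTHrP at 1 h, and its 6 h PTH difference of 0.31 passed (adjusted p = 0.0181). Tob2 is represented by a probe set with the suffix _x_at, which Affymetrix gives where some probes also match other sequences. At 1 h its 4 other probe sets gave 0.27 to 1.79 with PTH and 0.25 to 1.76 with PTHrP, and 3 of them passed with each ligand; at 6 h with PTHrP they gave -0.12 to 0.14 and none passed. The other Zfp36l1 probe set gave -0.43 (adjusted p = 0.00453) and -0.55 (0.000756) at 6 h and -0.41 (0.0166) with PTH at 24 h. The 2 other Zfp36l2 probe sets gave 0.29 and 0.00 with PTH at 1 h and passed in no comparison with untreated cells. With the mean of a gene's probe sets in place of the brightest, the calls of Zfp36l2 with PTH at 1 h (0.23, adjusted p = 0.162) and 6 h (-0.17, 0.096) and of Tob2 with PTHrP at 6 h (0.683) were lost. Zfp36 has a single probe set.

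Btg1 probe sets disagreed. The dimmest, 1442018_at, ranged from 7.01 to 8.56 in log2 intensity and gave -0.35 with PTH and -0.38 with PTHrP at 1 h (adjusted p = 0.188 and 0.124). It then passed as higher at 6 h (0.34, adjusted p = 0.0342, with PTH and 0.42, 0.0128, with PTHrP) and at 24 h (0.50, 0.00636, and 0.82, 3.88e-05). The other, 1437455_a_at, followed the probe set that represents the gene, with 0.10 and 0.09 at 1 h and no pass in any comparison of a ligand with untreated cells. Which transcript the dimmest probe set reads was not tested.

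**Figure D3:**
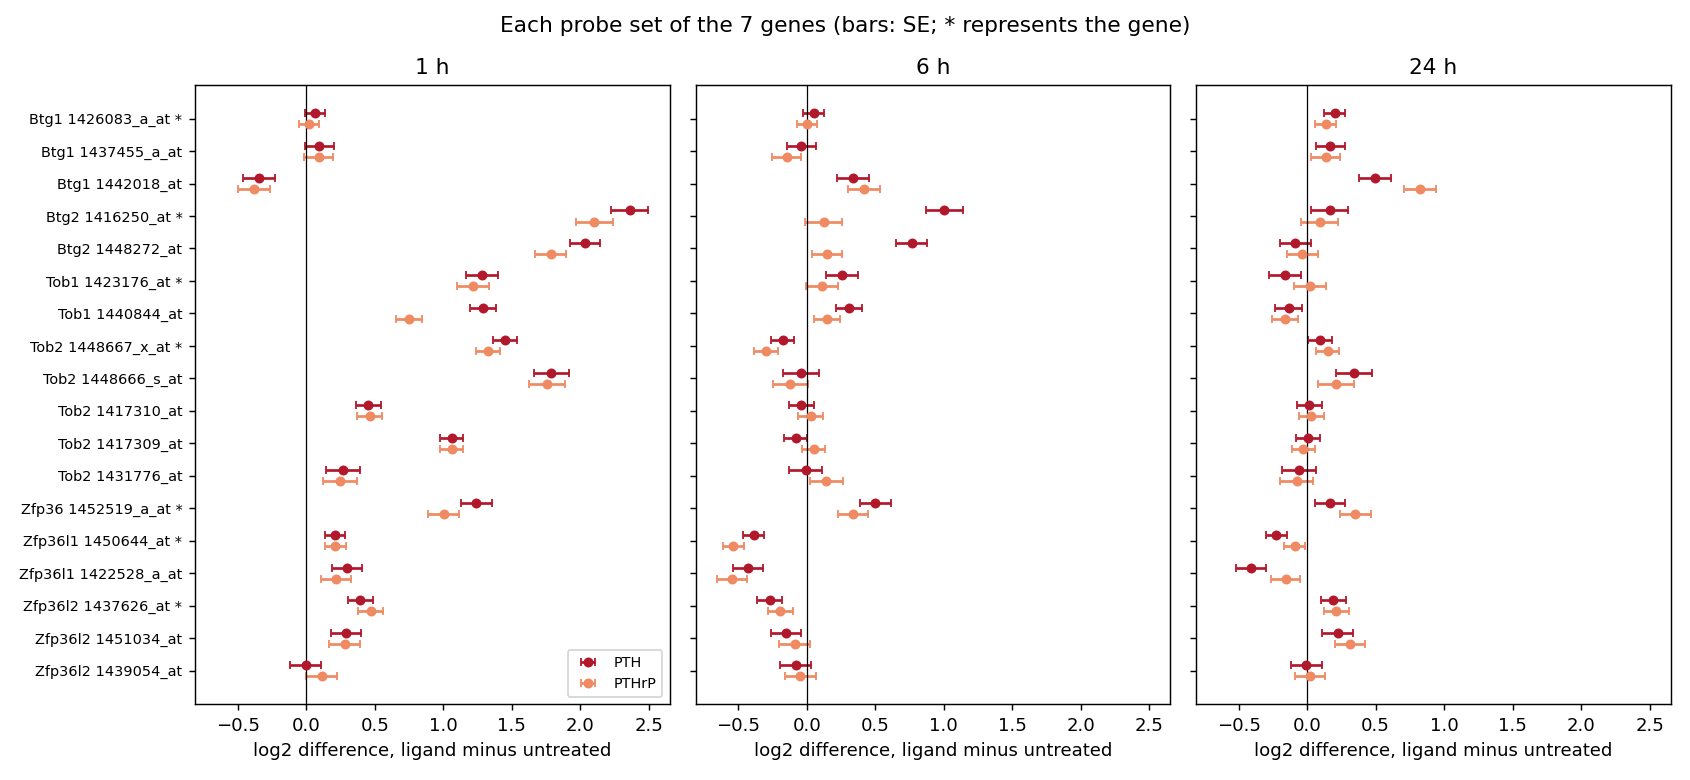
Difference from untreated cells of the same time in log2 units (x axis) for each of the 18 probe sets of the 7 genes (rows, * marks the one that represents the gene) at 1, 6 and 24 h, PTH in red above PTHrP in orange, bars SE. Both Btg2 and both Tob1 probe sets lie right of 0 at 1 h, the Tob2 probe sets spread from 0.27 to 1.79 with PTH, and Btg1 1442018_at departs from the other Btg1 probe sets.

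Of 17 measured genes listed under deadenylation (CCR4-NOT subunits, Noct, the PAN2-PAN3 and PARN enzymes and poly(A)-binding proteins), 0 passed with either ligand at 1 h. Cnot1, of the CCR4-NOT complex, had no probe set annotated to that gene alone and was not tested. The 1 h result was the same for 19 genes of decapping and 5′ to 3′ decay and 16 on the RNA exosome list. Over all genes 1.74% passed with PTH and 1.81% with PTHrP in limma's test, so such a count among so few genes is near the background, and 1433 genes with PTH and 1486 with PTHrP had an unadjusted p under 0.05. At 6 h, 4 deadenylation genes were higher and 3 lower with PTH, where 11.4% of all genes were higher and 17.9% lower, and 2 were higher and 1 lower with PTHrP, where 8.7% were higher and 12.2% lower. On this list Noct, the gene of the circadian protein nocturnin, differed most. Whether nocturnin acts on poly(A) tails was not tested. The Noct level was 8.63 ± 0.12 after PTH, 8.13 ± 0.20 after PTHrP and 7.62 ± 0.10 in untreated cells (SD, n = 3 each). The difference was 1.01 with PTH (adjusted p = 7.35e-08) and 0.51 with PTHrP (0.00103). Cnot7, the catalytic subunit bound by BTG and TOB proteins, differed by 0.51 (adjusted p = 0.00454) with PTH and 0.26 (0.193) with PTHrP, and Pan2 by -0.43 (0.00198) with PTH. Median differences of the deadenylation list at 6 h were -0.01 with each ligand, beside 0.00 and 0.03 over all genes.

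The exosome list also holds genes that do not encode exosome subunits: Skiv2l, Ttc37 and Wdr61 of the SKI complex, and the helicase gene Mtrex. Of its 16 genes, 4 were lower and 1 higher, Ttc37, with PTH at 6 h. With PTHrP 5 were lower and 0 higher. Among all genes lower calls also outnumbered higher ones at 6 h, at 17.9% and 11.4% with PTH and 12.2% and 8.7% with PTHrP. Exosc8, a core subunit, differed by -0.41 (adjusted p = 0.000924) with PTH and -0.38 (0.00276) with PTHrP, and Exosc1, a cap subunit, by -0.43 (0.000921) with PTHrP. Median differences of this list were -0.06 with PTH and -0.21 with PTHrP, beside 0.00 and 0.03 over all genes. Of the decapping list, 1 gene was higher and 3 lower with PTH at 6 h and 3 were lower with PTHrP, Lsm7 in both (-0.27 with each). Lsm7 lost its PTH call in 4 alternatives, without PTH replicate 1 (adjusted p = 0.0686) or 2 (0.0929) or untreated replicate 1 (0.0637) or 3 (0.0504), and its PTHrP call in 5, without PTHrP replicate 1 (0.0645) or 3 (0.0555) or untreated replicate 1 (0.0787) or 3 (0.0607) or with cyclic loess (0.0707). Ttc37 (0.38, adjusted p = 0.0231) and Ddx6 (0.28, 0.0476), the genes of these lists that were higher with PTH, lost the call under 4 and 23 alternatives.

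Among 16 other RNA-binding regulators of stability, Arid5a passed at 1 h, the only one to do so. Over all genes 1.74% passed with PTH and 1.81% with PTHrP at that time. Arid5a encodes a protein known in mouse to stabilise the Il6 transcript. Its level at 1 h was 8.87 ± 0.19 after PTH, 8.81 ± 0.17 after PTHrP and 8.22 ± 0.10 in untreated cells (SD, n = 3 each), a difference of 0.65 with PTH (adjusted p = 0.000294) and 0.58 with PTHrP (0.00109), and at 6 h it differed by 0.72 with PTH (7.01e-06) and 0.55 with PTHrP (0.000331). With only the groups compared, its PTHrP call at 1 h was lost (adjusted p = 0.0941). Celf1 was lower at 6 h, with differences of -0.34 (0.00172) with PTH and -0.29 (0.0085) with PTHrP, but with the mean of its probe sets these were -0.12 (0.188) with PTH and -0.17 (0.0658) with PTHrP. At 6 h 17.9% of all genes were lower with PTH and 12.2% with PTHrP. Hnrnpd, the gene of the AU-rich binding protein AUF1, was lower at 24 h with PTH, with a difference of -0.51 (0.000146). At 24 h 5.96% of all genes were lower with PTH. A list of 13 measured genes held kinases, phosphatases and 14-3-3 proteins linked to ZFP36 proteins. Of these Dusp1, a MAP kinase phosphatase also counted on the AU-rich list below, passed at 1 h (3.07 with PTH and 2.65 with PTHrP). At 1 h 1.74% of all genes passed with PTH and 1.81% with PTHrP. At 6 h 5 of the 13 were higher and 2 lower with PTH, where 29.3% of all genes passed. With PTHrP 3 were higher and 1 lower, where 20.9% of all genes passed. Ppp2ca, the catalytic subunit of protein phosphatase 2A, differed by 0.44 with PTH (2.39e-06) and 0.30 with PTHrP (0.000607; 0.0502 with the mean of its probe sets).

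Of 23 transcripts with AU-rich elements that ZFP36 proteins are known to target, 21 were tested, and at 1 h 10 were higher and 1 lower with PTH and 9 higher and 1 lower with PTHrP. Higher calls also prevailed among all genes at 1 h, at 226 of 273 with PTH and 246 of 285 with PTHrP, which were 1.74% and 1.81% of all genes tested. At 6 h 10 were higher and 3 lower with PTH and 8 higher and 2 lower with PTHrP, where 11.4% of all genes were higher and 17.9% lower with PTH and 8.7% higher and 12.2% lower with PTHrP. By 24 h 2 were higher and 1 lower with PTH and 4 higher and 2 lower with PTHrP. Over all genes 5.69% were higher and 5.96% lower with PTH at 24 h. With PTHrP 3.09% of all genes were higher and 3.02% lower at that time. The list's median was 0.08 and 0.10 at 1 h and 0.23 and 0.22 at 6 h, far below its largest members. Il6 was at 11.20 ± 0.78 after PTH, 10.21 ± 0.62 after PTHrP and 5.92 ± 0.66 in untreated cells at 1 h (SD, n = 3 each). Its difference was 6.08 with PTH (adjusted p = 2.42e-12) and 3.36 with PTHrP (1.8e-07) at 6 h. Untreated Il6 averaged 4.44 at 6 h and 4.95 at 24 h, under the filter's log2 of 5. Its differences at those times therefore rest on a dim untreated signal. Fos, whose transcript is a classical AU-rich substrate, differed by 3.63 with PTH and 3.37 with PTHrP at 1 h and by 2.12 with PTH and 1.28 with PTHrP at 6 h. Myc, chosen after its values were seen, was lower at 1 h (-0.55, adjusted p = 0.0188, with PTH and -0.65, 0.00338, with PTHrP) and at 6 h (-1.41 with PTH and -1.25 with PTHrP). Il6 with PTHrP at 24 h (1.40, adjusted p = 0.0187) lost the call without untreated replicate 2 (0.0899) or 3 (0.145) or PTHrP replicate 2 (0.0998).

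Of 13 genes listed as partners of BTG and TOB proteins (Prmt1, Hoxb9, Ccnd1, 6 Smad genes, and Cnot7, Cnot8, Pabpc1 and Pabpc4, which are also on the deadenylation list), the inhibitory SMAD genes passed at 1 h: Smad6 differed by 1.24 (adjusted p = 4.21e-07) with PTH and 1.37 (8.81e-08) with PTHrP, and Smad7 by 0.88 with PTH (9e-07) and 0.68 with PTHrP (5.74e-05; 0.0924 with only the groups compared). Over all genes 1.74% passed with PTH and 1.81% with PTHrP at 1 h. At 6 h Smad7 was still higher, by 0.98 with PTH (1.55e-08) and 0.50 with PTHrP (0.000354). Smad6 differed by 0.16 with PTH and 0.10 with PTHrP at 6 h and did not pass. At 24 h Smad6 was lower with PTH (-0.48, adjusted p = 0.0157) with overlapping arrays, where 11.6% of all genes passed. Smad7 passed with neither ligand at 24 h. Ccnd1, the gene of cyclin D1 and a transcript repressed by TOB and BTG proteins, was lower later. It is also counted on the AU-rich list above. Its difference was -0.80 with PTH and -0.45 with PTHrP at 6 h, and -1.47 with PTH and -0.89 with PTHrP at 24 h. At 24 h Ccnd1 averaged 9.76 ± 0.11 on PTH arrays, 10.34 ± 0.07 on PTHrP arrays and 11.23 ± 0.07 on untreated arrays (SD, n = 3 each). At 6 h 3 of the 13 were higher and 3 lower with PTH and 1 higher and 2 lower with PTHrP, beside 29.3% and 20.9% of all genes that passed. Of the 3 remaining family genes, only Btg4 had a probe set annotated to that gene alone. Its signal was dim, and its call with PTH at 6 h (0.29, adjusted p = 0.0473) was lost under 25 alternatives.

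**Figure D4:**
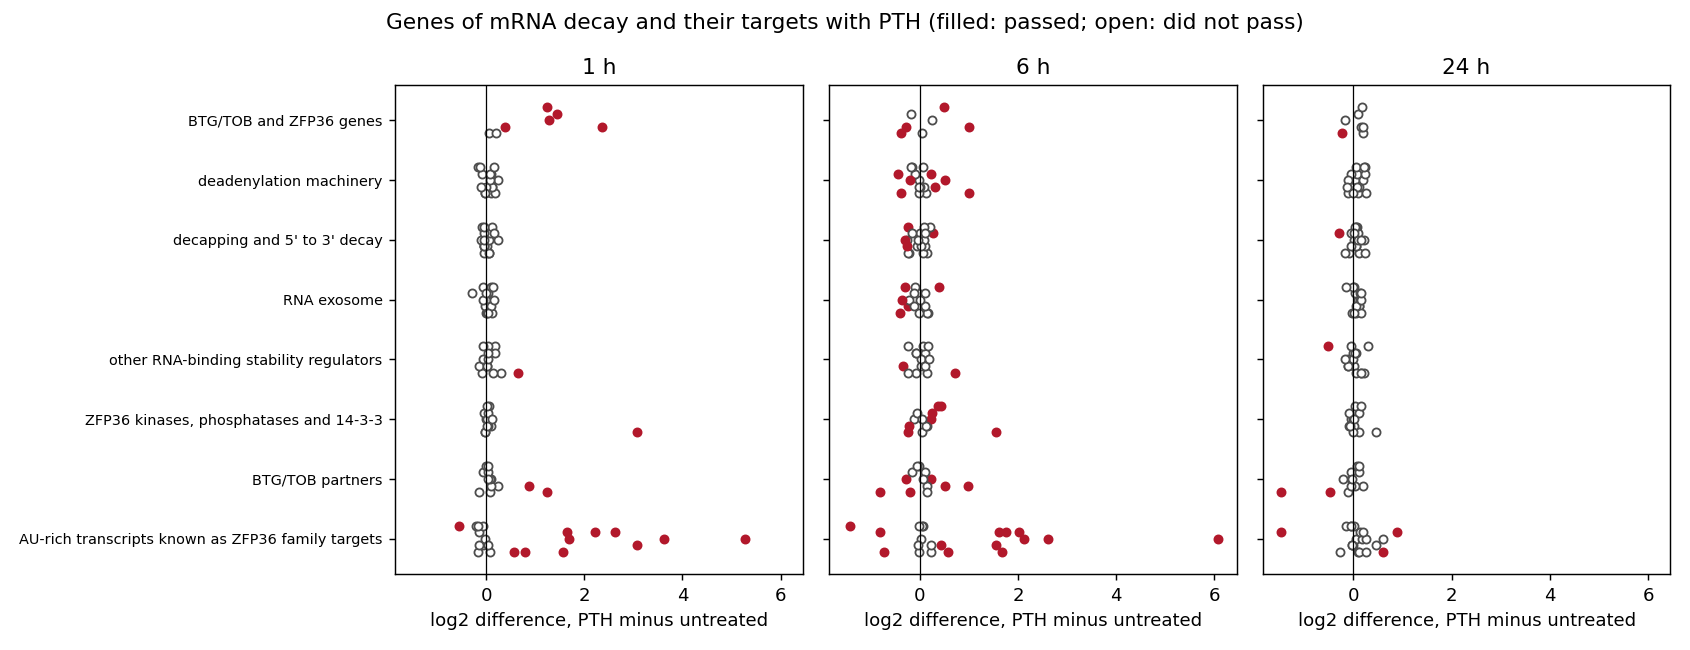
Difference of PTH from untreated cells in log2 units (x axis) at 1, 6 and 24 h (panels) for the 7 genes and 7 lists of mRNA decay genes, partners and targets (rows); each point is a gene, filled where it passed. At 1 h the deadenylation, decapping and exosome rows hold open points near 0, while the AU-rich targets reach 5.27 for Il6.

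Across the 9 group means, Btg2 and Zfp36 had a correlation of 0.974, Btg2 and Tob2 of 0.929, and Btg2 and Tob1 of 0.924, whereas Btg1 ran from -0.587 to 0.314 with the other 6. These values describe 9 means that share arrays, times and normalization. Among the 1999 or 2000 other genes whose group means spanned at least 1 log2 unit, those most like Btg2 were Coq10b (r = 0.989), Plk3 (0.988) and Hes1 (0.986). Those most like Zfp36 were Foxc2 (0.988), Junb (0.978) and Hes1 (0.976). Tob1 was most like Hlx (0.981), Ptger4 (0.980) and Csrnp1 (0.979), and Tob2 like Vps37b (0.972), D030056L22Rik (0.971) and Pim3 (0.951). For Zfp36l2 they were Foxc1 (0.979), Grasp (0.969) and Spry2 (0.947), and for Zfp36l1 Plk2 (0.962), Bambi (0.960) and Skp2 (0.957). Btg1 was most like Fnbp1l (0.990), Arl15 (0.989) and Gsto1 (0.986).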

How the data were processed

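Intensity values on a linear scale, 1 per probe set and array, were deposited by the authors; the submitters' processing notes name RMA as the method, and its software version and background model were not given in the sources used here. Per the series' design text the arrays were normalized again for the deposit, so values can differ from those published. RMA pulls the distributions of arrays together, which would hide a change common to most transcripts. The log2 values were computed here from the deposited intensities. Of 45101 probe sets, 64 controls were left out, 34958 had 1 gene symbol, 932 several, and 9211 were not listed or without a symbol. Each of 18193 genes was represented by its brightest probe set on average, and genes that reached log2 of 5 on at least 3 arrays entered the tests. No 2 arrays were identical.

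limma 3.58.1 in R 4.3.3 (lmFit, eBayes) fitted 9 group means to 27 arrays, with 18 residual degrees of freedom and 5.54 from the prior. Two-sided tests were adjusted by Benjamini-Hochberg over 15711 genes within each of 15 comparisons, with a threshold of 0.05, and intervals are at 95%. Precision is limited by the number of arrays, with a median SE of 0.102 for a difference of 2 groups. The fit was tested on simulated data for PTH at 6 h over 15711 genes. It recovered 65% of genes changed by -0.5, 77.5% by 0.5, 100% by -1 and 97.5% by 1 log2 unit, and called 6 of 15511 unchanged genes. Only 40 genes were changed by each size, and the noise was independent. In the real comparison of PTH at 6 h 29.3% of all genes passed, so these rates need not hold there.

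The members and gene lists were chosen with earlier results of these data known. Named genes were all 7 members and, from each decay list and comparison of a ligand with untreated cells, up to 3 genes past the threshold with the largest differences and arrays that did not overlap; Myc was added after its values were seen. Genes of like pattern were the 3 with the highest correlation over group means. The labels number replicates alike without naming a shared culture. As deviations from group means, same-numbered arrays correlated over 0.1 in all 3 pairs for 1 of 9 pairs of groups, PTHrP and untreated cells at 1 h (0.188, 0.266 and 0.449), and these numbers were used as a block in an alternative added after that was seen. Other alternatives were the filter, the probe set rule, quantile and cyclic loess normalization, only the groups compared, array weights, replicate blocks, an intensity trend and leaving out each array. Background correction, slide and scan date could not be varied. Promoter sequences are RefSeq's (GRCm38.p6), matched by symbol. Figures were drawn with matplotlib 3.10.9.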

Additional observations from a re-analysis of the deposited data

Results flagged for a closer look

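For 17 results the effect of a ligand differed between times by the limma test of the difference itself. With PTH, the effect at 6 h minus that at 1 h was -1.36 ± 0.19 log2 units for Btg2 (SE; adjusted p = 9.6e-06), -1.02 ± 0.16 for Tob1 (6.01e-05), -1.63 ± 0.12 for Tob2 (4.55e-10), -0.74 ± 0.16 for Zfp36 (0.00134), -0.60 ± 0.10 for Zfp36l1 (0.000167) and -0.67 ± 0.13 for Zfp36l2 (0.000482). With PTHrP it was -1.98 ± 0.19 for Btg2 (7.1e-08), -1.10 ± 0.16 for Tob1 (4.21e-05), -1.63 ± 0.12 for Tob2 (1.24e-09), -0.66 ± 0.16 for Zfp36 (0.00553), -0.75 ± 0.10 for Zfp36l1 (1.87e-05) and -0.66 ± 0.13 for Zfp36l2 (0.000859). Leaving out any single array ended none of these calls.

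From 6 to 24 h the PTH effect changed by -0.84 ± 0.19 for Btg2 (adjusted p = 0.00197) and by 0.46 ± 0.13 for Zfp36l2 (0.0105). The PTHrP effect changed by 0.45 ± 0.12 for Tob2 (0.0138), 0.44 ± 0.10 for Zfp36l1 (0.00532) and 0.41 ± 0.13 for Zfp36l2 (0.0382). The Tob2 call was lost without untreated replicate 1 of 6 h (0.0524) or of 24 h (0.0518). The Zfp36l2 call with PTHrP was lost without any of 8 arrays, with adjusted p of 0.0551 to 0.106: PTHrP replicates 2 and 3 of 6 h and of 24 h, untreated replicates 1 and 2 of 6 h, and untreated replicates 2 and 3 of 24 h. No group had enough arrays for a test of single outlying arrays.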

How the results depend on the processing

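The calls of Btg2, Tob1, Tob2 and Zfp36 at 1 h with both ligands, and of Btg2, Zfp36 and Zfp36l1 with PTH at 6 h, held under every alternative tried, with the exception of 1 dim Tob2 probe set, 1431776_at, at 1 h (0.27 and 0.25, adjusted p = 0.445 and 0.525). Leaving out 1 array moved the number of members that passed to 4 to 5 (PTH 1 h), 5 to 5 (PTHrP 1 h), 3 to 4 (PTH 6 h), 1 to 3 (PTHrP 6 h), 0 to 1 (PTH 24 h, PTHrP 24 h), 1 to 5 (untreated 24 against 1 h) and 1 to 3 (change of the PTHrP effect, 24 against 6 h). The count for PTH at 24 h, 1, was 0 with no filter, with only the groups compared and with either replicate block, 2 with the stricter filter (log2 of at least 7), mean of probe sets, cyclic loess or intensity trend, and 3 with array weights. For PTHrP at 24 h it was 1, in place of 0, with the stricter filter, mean of probe sets, only the groups compared or array weights. For untreated cells at 24 against 1 h it was 5, in place of 2, with the stricter filter, only the groups compared, array weights or trend, and 4 with cyclic loess. The change of the PTHrP effect from 6 to 24 h kept 1 of 3 with the mean of probe sets. Array weights gave 5 of 7 for PTHrP at 6 h and for the change of the PTH effect from 6 to 24 h, and 2 for PTHrP against PTH at 6 h. The replicate block within each time also ended the calls of Zfp36l2 with PTH at 1 h (adjusted p = 0.0603), of Zfp36l1 with PTH at 24 h (0.0729; 0.0576 with the block over all times) and of Zfp36l2's change of the PTHrP effect from 6 to 24 h (0.075), and the block on PTHrP and untreated arrays at 1 h ended none of 5; the blocks changed no other call. Other losses were Zfp36l2 with PTHrP at 1 h with only the groups compared (0.203) and, with quantile normalization, its change from 6 to 24 h (0.0579).

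Among member differences that passed under either setting, the sign turned with other probe sets of the same gene and under no other alternative: Zfp36l2 1439054_at with PTH at 1 h (-0.0046) and in untreated cells at 6 against 1 h (0.085); Tob2 with PTHrP at 6 h (1417310_at 0.031, 1417309_at 0.052, 1431776_at 0.14) and in its change to 24 h (-0.00055, -0.081 and -0.22); Btg1 1442018_at in the change from 1 to 6 h (0.69 with PTH, 0.81 with PTHrP) and in untreated cells at 24 against 1 h (-0.47). The cause was not tested. Differences near 0 that passed under neither setting also changed sign, as with Btg1 and PTHrP at 1 h (0.02, and -0.04 without PTHrP replicate 3). Counts over all genes moved by over 1.5 times with array weights: from 273 to 802 (PTH 1 h), 285 to 1764 (PTHrP 1 h), 3288 to 6952 (PTHrP 6 h), 1830 to 4388 (PTH 24 h), 959 to 2079 (PTHrP 24 h), 1197 to 4540 and 182 to 1273 (PTHrP against PTH, 6 and 24 h), 356 to 1307 and 3635 to 5651 (untreated, 6 and 24 against 1 h), and 3211 to 5128, 1915 to 6229 and 1903 to 4979 (changes of effect). Without PTHrP replicate 3 of 1 h, 931 genes passed with PTHrP at 1 h, 442 with PTH at 1 h, 585 in untreated cells at 6 h and 4087 in the change of the PTHrP effect; the same 5 members passed with PTHrP, Btg2 at 1.96 and Zfp36 at 0.87. With only the groups compared the counts were 103 (PTHrP 1 h), 769 and 83 (PTHrP against PTH, 6 and 24 h), 584 (untreated 6 h) and 2913 (change of the PTHrP effect to 24 h). Leaving out an array of the groups compared gave as few as 175 in untreated cells at 6 h, 629 for PTHrP against PTH at 6 h and 77 at 24 h. Genes near background have understated folds.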
